A study of Mus musculus with 319 samples.

Results

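Among thymic cells sorted as tuft cells, 88 of 301 kept cells (29.2%, exact Clopper-Pearson 95% interval 24.2 to 34.7) held almost no messenger RNA of the MHC class II molecules. They were chosen by a readout: the reads of H2-Aa, H2-Ab1, H2-Eb1 and Cd74, summed and scaled to a fixed total of gene reads per cell (CPM), came to less than 250. Cells from 250 to 2500 CPM served as the comparison cells within each set of wells, and 62 cells lay above 2500. Since the 4 genes chose the cells, their levels are a description, and so is every other gene's difference between the same cells.

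The series holds 314 wells of 1 sorted mouse thymic cell, with full-length Smart-seq2 libraries and ERCC spike-in RNA. The wild-type (WT) mice carried Flare25/Flare25, a reporter of Il25 on a C57BL/6.Il25 background, and the knockout mice were Flare25/Flare25 Aire-/- on C57BL/6.Il25.Aire, so all animals carried the reporter. The mice were naive, of mixed sex and 6 weeks old, except that 1 Aire-/- well is labelled 5 weeks. Aire is the nuclear regulator of tissue antigen expression in medullary thymic epithelium. Every cell, of each group, was gated as negative for UVBlue, CD45 and CD11c, positive for EPCAM and Flare25, and low for surface MHC class II protein. WT wells came as June5 (31 wells) and June29 (95) of batch 1 and as 92 wells of batch 2, and the 96 Aire-/- wells were all in batch 2. The labels name no animals, so each set stands as a single unreplicated sample. Cells were not used as replicates, no p-value is given, and intervals cover counting error only. Values by set follow the order June5, June29, WT batch 2 and Aire-/-, in which the cells below 250 number 11, 44, 24 and 9 and the comparison cells 17, 33, 52 and 49.

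MHC class II molecules present peptides to CD4 T cells. Their alpha and beta chains pair in the endoplasmic reticulum with the invariant chain, which is encoded by Cd74 and is removed by lysosomal proteases, and H2-M then helps to load a peptide. Transcription depends on the coactivator Ciita, which is recruited by the RFX, CREB and NF-Y factors bound at the promoters. Medullary thymic epithelial cells use MHC class II to test developing T cells, and thymic tuft cells, a chemosensory epithelial type with taste receptors and Il25, are a part of that epithelium.

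The promoters of 2 of the genes that define the group are shown with the letters of the Y box, an element known from promoters of this family. Each is the 100 bases before the gene's start in RefSeq (GRCm38.p6), on the gene's strand, H2-Aa at chr17:34287824-34287923 (minus strand) and H2-Eb1 at chr17:34305767-34305866 (plus strand). Capitals mark the letters TGATTGG, which contain the CCAAT core bound by NF-Y, read on the opposite strand.
H2-Aa: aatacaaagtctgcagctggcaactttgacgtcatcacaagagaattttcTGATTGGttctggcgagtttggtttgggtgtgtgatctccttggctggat
H2-Eb1: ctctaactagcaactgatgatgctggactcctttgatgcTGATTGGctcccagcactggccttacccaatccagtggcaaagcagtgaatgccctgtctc
The match began 50 bases before the start of H2-Aa and 61 before that of H2-Eb1. Within 250 bases before the start, on either strand, TGATTGG was found in 7 of 8 MHC class II genes with an entry (9 were searched) and in 2375 of 32851 promoters (7.23%). H2-DMa was the gene without a match in this window. A match is a description of letters and not of a bound factor. In GRCm38 these genes lie in 1 stretch of chromosome 17, from H2-Oa (34092340 to 34095234) through H2-DMa (34119541 to 34139101) and H2-Aa (34282744 to 34287823) to H2-Eb2 (34325665 to 34341412), while Ciita lies on chromosome 16 (10480059 to 10528418).

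Cells below 250 CPM were found in every set, and their share differed between the sets. June5 had 11 among 29 kept cells (37.9%, interval 20.7 to 57.7) and June29 44 of 87 (50.6%, 39.6 to 61.5). WT batch 2 had 24 of 89 (26.97%, 18.1 to 37.4) and the Aire-/- set 9 of 96 (9.38%, 4.38 to 17.1). June29 had the highest share and the Aire-/- set the lowest. The authors' sample list holds a field headed Batch that splits batch 2 into parts 1 and 2, each with cells of both genotypes. In part 1 the share was 33.3% of 48 WT cells and 12.5% of 48 Aire-/- cells. In part 2 it was 19.5% of 41 and 6.25% of 48. The Aire-/- share was the lower in both parts, but the labels give no animals to replicate the genotypes. The intervals overlap within part 1 (20.4 to 48.4 and 4.73 to 25.2) and within part 2 (8.82 to 34.9 and 1.31 to 17.2). The share also rests on the surface gate, which admitted only cells low for MHC class II protein.

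**Figure D1:**
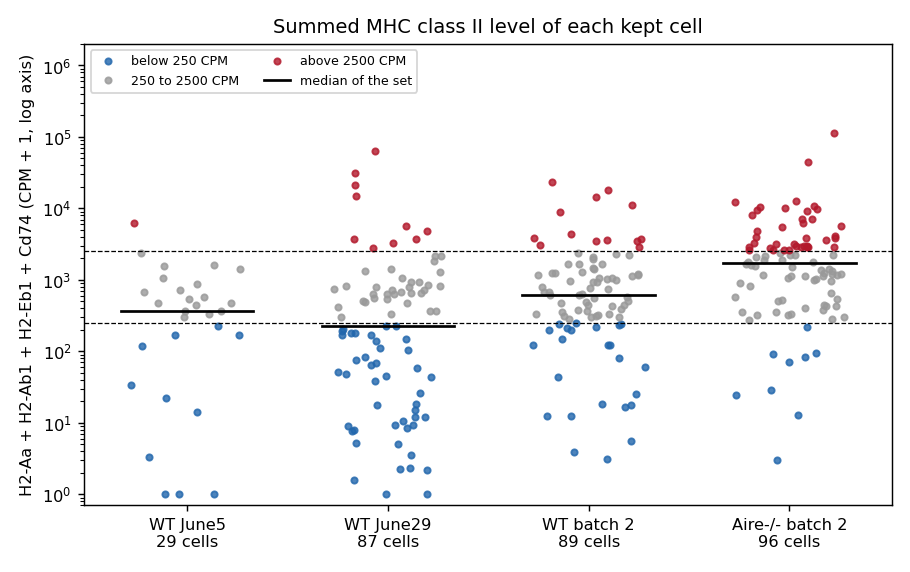
Summed level of H2-Aa, H2-Ab1, H2-Eb1 and Cd74 in each kept cell (CPM plus 1, log axis), by set; points are cells, coloured by class, black bars are set medians and dashed lines mark 250 and 2500 CPM. Cells spread without a gap across 250 CPM, the June29 median (228 CPM) lies below the line, and the Aire-/- median is 1716 CPM.

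Within the group the level ran down to nothing. The median cell of the group had 21.1, 31.6, 100.8 and 69.6 CPM of the 4 genes by set, against 573, 714, 756 and 1126 in the comparison cells. No read of any of the 4 genes was found in 5 of the 88 cells (3 of June5, 2 of June29), 27 had 5 or fewer reads, 24 lay under 10 CPM and 47 under 50. Counting a gene as found in a cell with 5 or more reads, 30 of the 88 cells had none of the 4 genes, 31 had 1, 20 had 2, 4 had 3 and 3 had all 4. The threshold cuts a continuous range: 12 cells lay from 200 to 250 CPM and 6 from 250 to 300. The nearest inside were at 245, 245, 240, 237 and 228 CPM, and the nearest outside at 277, 279, 286, 297 and 299. The no-cell well of batch 1 held 23 reads of these genes among 9892 gene reads, so a few reads in a well need not come from its cell.

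Of the genes that made the rule, H2-Aa, the alpha chain of I-A, was at 0.39, 8.42, 29 and 1.5 CPM in the cells below 250, by set. It was at 124.3, 75.1, 140.4 and 286 CPM in the comparison cells. H2-Ab1, its beta chain, was at 54.8, 21.1, 44.7 and 2.05 against 159.8, 223, 261 and 333 CPM, so it was the gene of the 4 with the smallest gap in June5. H2-Eb1, the beta chain of I-E, was at 5.46, 25.6, 13.7 and 55.4 against 271, 162.9, 263 and 369 CPM. Cd74, the invariant chain, was at 0.39, 13.4, 29.2 and 17.9 against 244, 352, 226 and 243 CPM. The cells were split on the sum of these 4 genes, so the separation of the 2 classes here describes the choice of cells and is not a result.

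The cells remained tuft cells by their markers. All 88 had 5 or more reads of at least 2 of 15 tuft markers, with a median of 13 of 15, which was also 13 in the comparison cells. The sum over these markers had a median per cell of 15259, 16682, 16772 and 19829 CPM by set, against 17964, 16568, 18335 and 19803 CPM in comparison cells. In 4 of the 88 cells it was below 5000 CPM, with the lowest at 41.2 CPM in WT batch 2, so that those 4 carry the tuft label weakly; 2 comparison cells were below 5000 as well. Avil, which encodes the actin regulator advillin, was found in 88 of 88 cells, at 2349, 3185, 2361 and 3486 CPM against 4858, 4278, 3377 and 4387, and was lower in every set. Trpm5, a cation channel that acts downstream of taste receptors, was at 2742, 2917, 2212 and 1669 CPM against 3278, 2295, 2446 and 1915, with June29 higher and the other sets lower. Il25, whose reporter drove the sort, was at 55.2, 49.2, 94.9 and 53.4 CPM against 75.2, 41.9, 76.5 and 78.95, so that its direction also differed between sets.

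The cells below 250 CPM had more mitochondrial reads and less RNA relative to the spike-in in 3 of the 4 sets. The median share of mitochondrially encoded reads was 13.3% against 5.37%, 12.1% against 5.51% and 6.10% against 3.72% in the WT sets, and 3.23% against 3.90% in the Aire-/- set. The median share of spike-in reads was 47.96% against 32.3%, 38.5% against 27.9%, 54.9% against 38.5% and 30.7% against 30.9%. The Aire-/- set was thus the set in which neither measure was raised, with 9 cells. At an equal depth of 100000 gene reads the median cell had 2992 genes against 4181, 2634 against 3682, 3056 against 3378 and 3650 against 3613, after 1 cell below 250 and 2 comparison cells shallower than that were left out; without thinning it had 4106 against 5542, 4800 against 5435, 3951 against 4246 and 4741 against 4457. Among cells with at most 8% mitochondrial reads the share below 250 CPM was 29.4%, 26.8%, 21.7% and 8.14% by set. Among those over 8% it was 50%, 71.7%, 45% and 20%. The part of these differences in the gene values below was not tested beyond 3 repeats: on cells with at most 8% mitochondrial reads, on cells with at most 40% spike-in reads, and with mitochondrial reads left out of the CPM. The medians of the first 2 are given beside most of the lists.

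**Figure D2:**
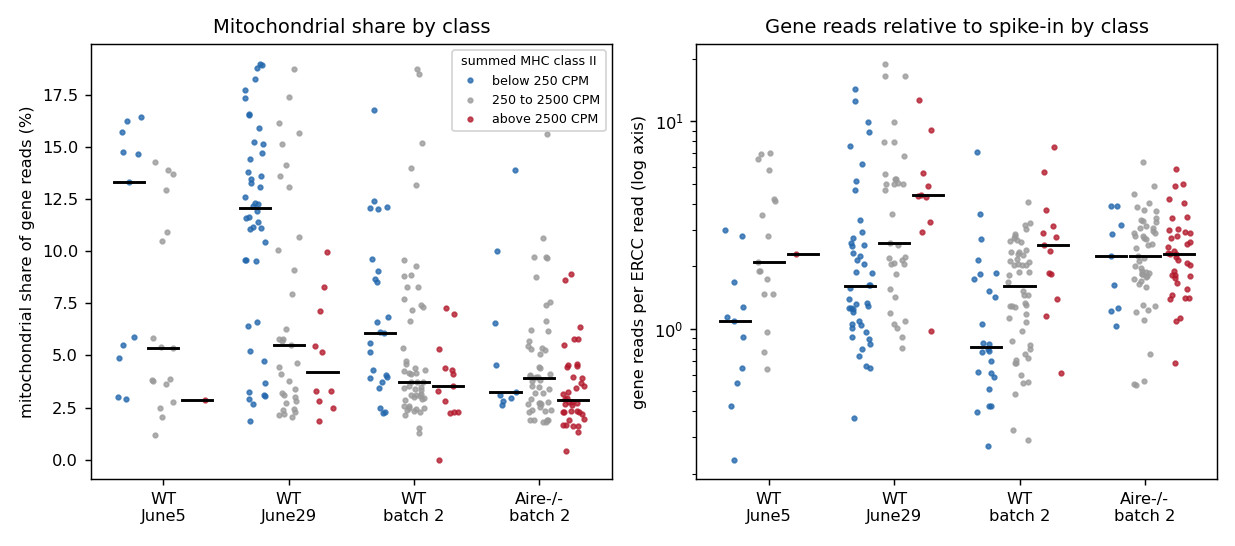
Mitochondrial share of gene reads (left, %) and gene reads per ERCC read (right, log axis) by set and class of summed MHC class II level; points are cells and black bars class medians. In June5, June29 and WT batch 2 the cells below 250 CPM have higher mitochondrial medians (13.3%, 12.1% and 6.10%) than the comparison cells, and in the Aire-/- set they do not (3.23% and 3.90%).

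Markers of blood cells showed no clear difference between the classes. Their share was slightly lower in the cells below 250 within each set, but higher over all sets together (23.9% against 21.2%). At least 2 markers of thymocytes, B cells, or dendritic cells or macrophages were found in 36.4%, 31.8%, 8.33% and 11.1% of the cells below 250 by set (21 cells) against 41.2%, 33.3%, 15.4% and 12.2% of the comparison cells (32). B cell markers accounted for 15 and 30 of these, with a summed level over the 9 markers of 61.9 to 126.8 CPM by set against 218 to 335. Among them Fcmr was at 0 in the cells below 250 and in the comparison cells of every set. Thymocyte markers met that count in 3 cells against 0, with a summed level of 353 CPM in June5 and 555 in WT batch 2 against 5.40 and 14.6. Rag1 and Rag2, the recombinase genes of developing lymphocytes, were at 0 in the cells below 250 of every set. In the comparison cells Rag2 was also at 0 in every set, and Rag1 in every set but June29. Dendritic cell or macrophage markers met it in 3 cells, all of June29, against 2, none of June29. Their summed level was 0, 32.1, 2.52 and 1.77 CPM by set against 5.73, 19.03, 61.5 and 156.6, higher in June29 and lower in the other sets. Markers of Aire-expressing medullary cells (8 genes) were met in 1 of 88 cells (1.14%) against 13 comparison cells (8.61%), with a summed level of 2.14 to 37.7 CPM by set against 63.6 to 93.3. Of the other epithelial lists, mTEC low was met in 7 against 12 cells, cTEC in 5 against 7, corneocyte-like in 1 against 5, neuroendocrine-like in 0 against 5, ciliated in 3 against 4, and microfold-like, whose genes tuft cells share in part, in 80.7% against 90.1% of cells. Ciliated markers had a summed level of 459, 200.1, 768 and 109.6 CPM by set against 23.9, 71.3, 190.7 and 116.5, higher in the WT sets and lower in the Aire-/- set. In each WT set 1 cell below 250 met the count, and in June5 6 of the 8 markers were at 0 there, against 5 in the comparison cells. The part of ciliated markers in the gene values was not tested. Fibroblast markers were met in 1 against 1 cell and endothelial markers in 1 against 3.

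A gene was called by a size rule: a mean over the 4 sets of the within-set log2 fold (CPM plus 1) of at least 1 in size, the same sign in every set, at least 20 CPM in the higher class, and a gap of 15 points or more between the classes in the share of cells with 5 or more reads (positive cells). Of 8307 genes, 210 (2.53%) were lower and 8 (0.0963%) higher in the cells below 250, and the rule is not a test. Over all genes at 5 CPM or more the median of the mean log2 folds was -0.31, and the medians within single sets ran from -0.28 (June5) to -0.08 (WT batch 2). The mean was below 0 for 63.8% of these genes. The list medians below are to be read beside these values, and some alternatives move the median of all genes as well, to -0.11 with a threshold of 400 CPM and to -0.87 without each gene's top cell. With at most 8% mitochondrial reads the numbers were 241 (2.85%) and 54 (0.639%), and these held 50.95% of the 210 and all 8 of the genes higher. With at most 40% spike-in reads, where June5 had fewer than 5 cells and dropped out, 2.44% of genes were lower and 2.03% higher, with 82 of the 210 and 1 of the 8 among them. Without June29, WT batch 2 or the Aire-/- set, the sign had to hold in fewer sets and 338, 412 and 455 genes were lower, and 47, 34 and 16 higher. Without June5, 1.995% of genes were lower and 41 genes higher, and these held 45.2% of the 210. Without June29, WT batch 2 or the Aire-/- set, 82.4%, 88.6% and 75.7% of the 210 were still called lower. With a threshold of 400 CPM the calls held 12.9% of the 210 and 0 of the 8. Without cells with blood markers they held 55.7% of the 210 and 2 of the 8, so the genes called depend on these choices.

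The other genes of the MHC class II pathway were mostly lower together with the 4 that made the rule. Of 11 listed genes 9 were measured at 5 CPM or more, with a median of -1.42, beside -0.31 over all 12772 such genes. Of these 9, 8 had a mean below 0 (63.8% of all genes did) and 5 were below 0 in every set (12.4% of all genes). The size rule called 2 of them lower, both subunits of H2-M, which exchanges the invariant chain peptide for others. Over cells with at most 8% mitochondrial reads the median was -1.23 and the same number was called, and over those with at most 40% spike-in reads it was -1.80. Since the cells were sorted by the same pathway, this is a description of the group and not independent support for it.

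H2-DMa, the alpha chain of H2-M, was at 0, 0.79, 10.5 and 0.27 CPM in the cells below 250, by set, where the count of 0 in June5 allows up to 0.58 CPM. It was at 47.2, 14.2, 30.5 and 74.1 CPM in the comparison cells, and 17.6%, 15.2%, 17.3% and 38.8% of these were positive. In WT batch 2, 1 cell held 93.6% of the group's reads. The mean log2 fold was -4.00 ± 2.11 (SD over 4 sets), and H2-DMa no longer met the rule without the Aire-/- set (-3.38), with a threshold of 400 CPM (-2.63) or with comparison cells up to 1000 CPM (-3.73).

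H2-DMb1, a beta chain of H2-M, was at 80.5, 68.6, 39.9 and 10.8 CPM in the cells below 250 against 109.4, 112.1, 103.5 and 106.8, and it was the lower in each set. It was positive in 27.3%, 20.5%, 16.7% and 22.2% of cells against 52.9%, 42.4%, 42.3% and 51.02%. Its mean log2 fold was -1.42 ± 1.24 (SD over 4 sets), and it fell short of the rule without the Aire-/- set (-0.83) and with a threshold of 400 CPM (-0.67). H2-DMb2, its close paralog with which it could share reads, was at 3.90, 5.51, 21.4 and 0.68 CPM against 16.1, 10.9, 28.6 and 10.8 and stayed under the level that the rule asks for.

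H2-Oa, a subunit of H2-O, which restrains H2-M, had 0 reads in both classes of June5. In June29, WT batch 2 and the Aire-/- set it was at 3.06, 0.34 and 2.73 CPM against 15.3, 23.5 and 37.8. H2-Ob, the other subunit, had a mean of 8.06 CPM in the cells below 250 against 0.31, carried by WT batch 2, with a log2 fold of 5.01 there and 0 or below in the other sets. H2-Eb2, a further beta chain gene, was at a mean of 0.45 CPM against 3.28, too low to be counted as measured.

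The enzymes that clear the invariant chain and antigens were less uniform. Lgmn, the asparaginyl endopeptidase, was lower in 4 of 4 sets with 2.34, 0.16, 1.01 and 35.04 CPM against 30.7, 26.98, 2.82 and 44.6. Ifi30, the lysosomal thiol reductase, was lower in 4 of 4 sets as well, with a mean log2 fold of -0.73 ± 0.39. Ctss, the protease that cuts the invariant chain in many antigen-presenting cells, was lower in June29 and the Aire-/- set (1.498 against 21.05 CPM and 0 against 20.8) and higher in June5 and WT batch 2 (31.8 against 26.7 and 30.1 against 1.47), and Ctsl, the related protease of cortical epithelium, was likewise split. Ciita, the coactivator, was close to absent from both classes: 1 read in the 88 cells below 250 and 4 reads in the comparison cells. Its level therefore could not be compared between these classes.

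**Figure D3:**
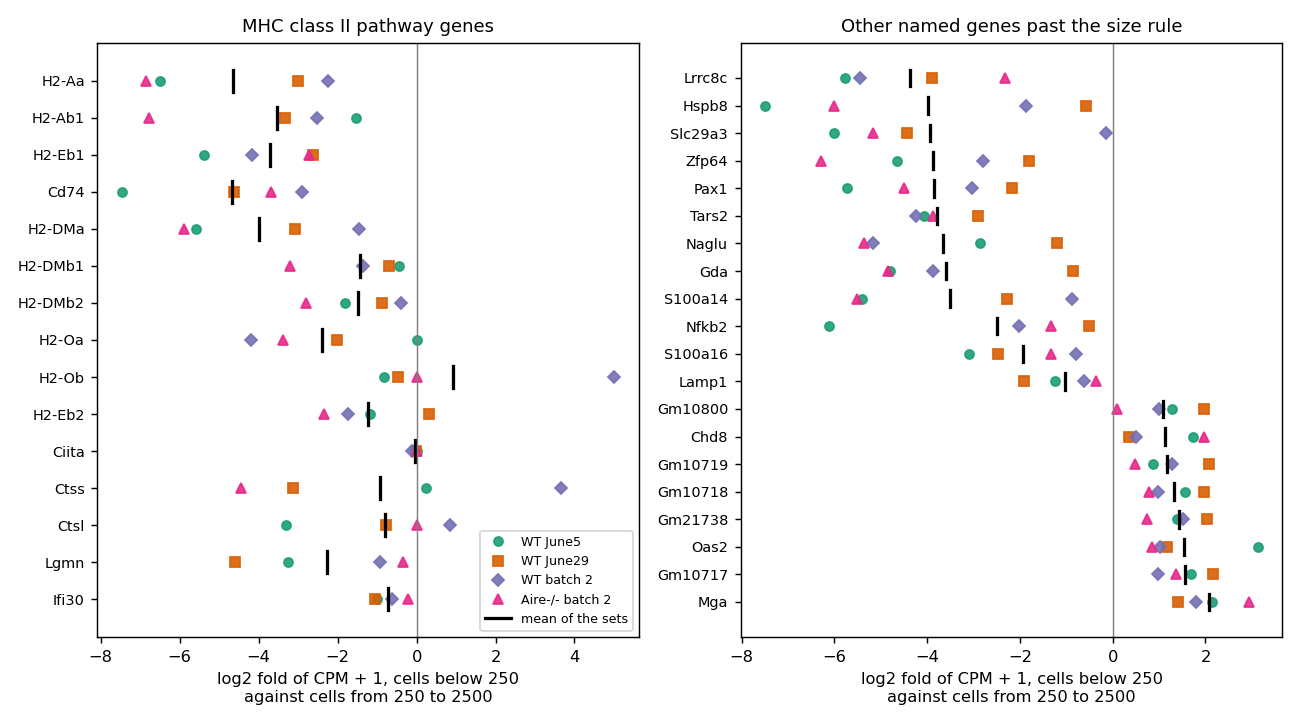
Log2 fold of CPM plus 1 between cells below 250 and cells from 250 to 2500 CPM, by set (coloured symbols) with the mean of the sets (black bar), for MHC class II pathway genes (left) and other named genes that met the size rule (right). H2-DMa has a mean of -4.00 and H2-DMb1 of -1.42 with all 4 sets below 0, while Ctss and H2-Ob lie on both sides of 0.

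The factors bound at MHC class II promoters showed no common direction. Of 7 genes 6 were measured, the median was -0.48, none was called and none was below or above 0 in every set. Over the 21 alternatives that median ran from -1.44 without WT batch 2 to 0.36 with a threshold of 400 CPM. Nfyb, a subunit of NF-Y, was on average at 45.9 CPM in the cells below 250 and 37.4 in the comparison cells. Rfx5, the large subunit of the RFX complex, was at 1.97 and 4.72 CPM, below the level at which genes were measured.

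Messenger RNA of MHC class I was present in all of these cells. None of 17 genes of class I presentation was called, and their median was -0.17, beside -0.31 over all genes. It was -0.06 with at most 8% mitochondrial reads (all genes -0.39) and -0.56 with at most 40% spike-in reads (all genes -0.23), so its place relative to all genes turned round. Without cells with blood markers it was -0.57. H2-K1, a classical class I heavy chain, was positive in every cell of both classes and averaged 3871 CPM against 5629, and H2-D1, another, 5371 against 7841. B2m, the shared light chain, averaged 2728 against 4679 CPM. Each of these 3 was lower in 4 of 4 sets, with mean log2 folds of -0.53 ± 0.27, -0.59 ± 0.32 and -0.79 ± 0.37, all under 1 in size. The class I heavy chain genes are near copies of each other and may share reads.

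Genes that respond to interferon, which induces MHC class II in many cells, gave no call. Of 25 measured genes none was called lower or higher and 5 had a mean below 0 (63.8% of all genes did). The median was 0.26, beside -0.31 over all genes. With at most 8% mitochondrial reads the median was 0.87 (24 genes measured) and with at most 40% spike-in reads 0.01. Without each gene's top cell it was -0.23, the 1 of 21 alternatives in which it was below 0. Irf7, an interferon regulatory factor, averaged 420 CPM against 332, and Oasl2, an interferon-induced synthetase-like gene, 303 against 271, each with both signs among the sets. Oas2, an oligoadenylate synthetase induced by interferon and not on that list, was 1 of the 8 genes called higher. It was at 315, 191.2, 46.8 and 21.3 CPM against 35.1, 84.8, 22.5 and 11.3, higher in every set, but in June29 1 comparison cell held 98.99% of its class's reads, and the call did not hold without June5 or under 6 other alternatives. The receptor and kinase genes of interferon signalling (9 measured) had a median of -0.52 with none called.

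Genes of medullary epithelial maturation lay mostly on the lower side, with 1 call, where 2.53% of all genes tested were called lower. Of 13 measured genes 12 had a mean below 0 (63.8% of all genes did). Below 0 in every set were 2 of the 13 (12.4% of all genes were). The median was -1.43, beside -0.31 over all genes. It was -1.78 with at most 8% mitochondrial reads and -1.65 with at most 40% spike-in reads, but -0.88 without cells with blood markers, -0.79 with a threshold of 400 CPM and -0.82 with 5 CPM added. Nfkb2, a subunit of the non-canonical NF-kB pathway that matures medullary cells, was the gene called, at 1.17, 113.6, 14.5 and 30.7 CPM against 149.7, 163.4, 62.04 and 79.1. The call rested on June5 and on the class limits: without June5 the mean log2 fold moved from -2.50 to -1.29, and with a threshold of 400 CPM to -0.18. The rule was not met under these or under 3 other alternatives. Ly6d, a keratinocyte surface protein, was at a mean of 27.04 CPM against 156.9 and lower in 3 of 4 sets. Aire itself, named here after its values were seen, was at 0, 16.6, 6.72 and 8.32 CPM against 7.53, 7.48, 21.2 and 54.9, higher in June29 and lower in the other sets. In the Aire-/- set 3 of 9 cells below 250, 13 of 49 comparison cells and 16 of 38 cells above 2500 were positive for Aire reads, which need not come from an intact transcript.

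S100A proteins, small calcium-binding proteins of epithelia, gave 2 calls lower among 7 measured genes, where 2.53% of all genes tested were called so. All 7 means were below 0 (63.8% of all genes were), and the median was -1.04. The median was -1.32 with at most 8% mitochondrial reads and -1.10 with at most 40% spike-in reads, and it was -0.38 with a threshold of 400 CPM. S100a16 was at 14.6, 25.1, 64.9 and 75.1 CPM against 133.3, 144.7, 112.5 and 190.9 and was positive in 9.09%, 15.9%, 20.8% and 33.3% of cells against 58.8%, 57.6%, 48.1% and 69.4%. It was lower in every set, with a mean log2 fold of -1.92 ± 1.06, and met the rule under 19 of 21 alternatives. S100a14, its neighbour in the family, was at 0.78, 8.04, 11.3 and 0.14 CPM against 74.4, 42.9, 21.7 and 50.5, and also met the rule under 19 of 21. In WT batch 2 its shares of positive cells were close, 12.5% and 13.5%. S100a1, of the same family, was positive in 82.9% of cells against 88.5% and was not called.

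Lysosomal genes had smaller folds. All 13 measured cathepsin and lysosome genes had a mean below 0 (63.8% of all genes did) and 7 were below 0 in every set (12.4% of all genes), with a median of -0.77. The median was -0.74 with at most 8% mitochondrial reads and -0.70 with at most 40% spike-in reads. Lamp1, a membrane protein of lysosomes, was at 116.6, 89.6, 219 and 280 CPM against 278, 340, 339 and 357 and was the list's call. At a mean log2 fold of -1.03 it stood at the edge of the rule, which it missed without June5 (-0.96), without June29 (-0.74), and under 7 other of the 21 alternatives. Ctsb, a cysteine protease, was lower in 4 of 4 sets, at a mean of 154.6 CPM against 288.

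The tuft programme gave no call. Of 32 tuft core genes 12 were below 0 in every set (12.4% of all genes were), and the median was -0.44, with -0.66, -0.07, -0.26 and -0.53 by set beside -0.28, -0.22, -0.08 and -0.16 over all genes. The median was -0.46 with at most 8% mitochondrial reads, -0.49 with at most 40% spike-in reads and -0.04 with a threshold of 400 CPM. Gnat3, the taste G protein subunit, was positive in 79.6% of cells on average against 69.8%. Taste transduction genes (13 measured) had a median of -0.14, which ran from -0.64 without each gene's top cell to 0.10 with a threshold of 400 CPM. The median number of Tas2r bitter receptor genes with a read, of 40, was 6 against 5, 5 against 5, 3.5 against 3.5 and 13 against 5 by set. Thinned to 100000 reads it was 6 against 2, 2 against 2, 2 against 2 and 13 against 3. The higher number in the Aire-/- set rests on 9 cells, which ran from 2 to 24 genes before thinning.

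Eicosanoid synthesis genes, which make the leukotrienes and prostaglandins released by tuft cells, were all on the lower side, but none was called. Of 11 measured genes, 11 had a mean below 0 (63.8% of all genes did) and 6 were below 0 in every set (12.4% of all genes). Their median was -0.98, beside -0.31 over all genes. The median was -1.21 with at most 8% mitochondrial reads and -0.91 with at most 40% spike-in reads, and it was -0.59 without June5 and -0.31 with a threshold of 400 CPM. Alox5, the 5-lipoxygenase, was at 559, 1037, 909 and 1410 CPM against 2693, 1317, 1460 and 2333, and Alox5ap, its activating protein, averaged 540 against 1057. Both remained detected in most cells, 88.2% against 94.8% for Alox5 and 81.2% against 86.1% for Alox5ap, so that the differences were of level. Of the acetylcholine genes, Chat, which makes acetylcholine, averaged 396 CPM against 299, and Ache, which degrades it, 0.64 against 29.7 CPM, lower in 4 of 4 sets but positive in too few cells (1.61% against 11.6%) to be called. Of the tuft state genes (9 measured, none called, median -1.01, or -0.60 without the Aire-/- set and -1.81 with at most 40% spike-in reads), Gp2, a surface receptor of microfold cells, had 0 reads in the 9 Aire-/- cells below 250 against 1178 CPM, where 1 comparison cell held 56.3% of the reads, and was higher in June29 (1204 against 621 CPM).

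The remaining lists held no call. Their medians were -0.24 for cytokines and chemokines (11 measured), -0.47 for cytokine receptors (11), -0.44 for keratins and epithelial genes (12), -0.33 for acetylcholine genes (4), -0.0036 for immediate early and dissociation stress genes (15) and 0.71 for cell cycle genes (12). The cell cycle median ran from -2.36 in the Aire-/- set to 4.41 in WT batch 2 and so had no common sign. Fos, an immediate early gene, averaged 1577 CPM against 1340.

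**Figure D4:**
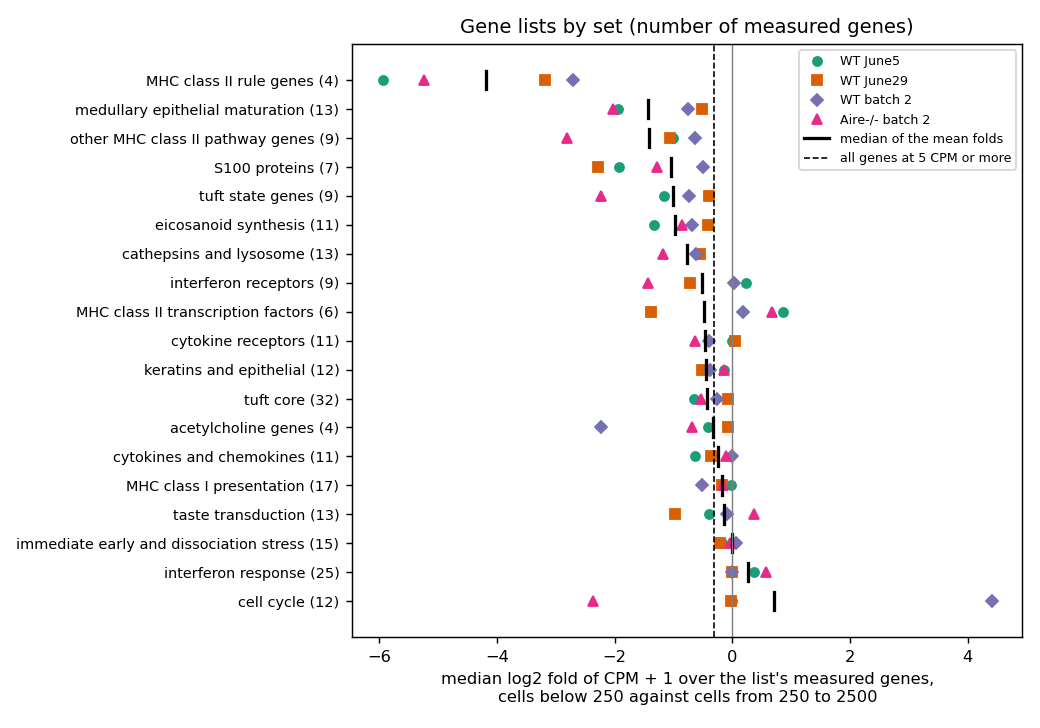
Median log2 fold of CPM plus 1 over the measured genes of each list, cells below 250 against cells from 250 to 2500 CPM, by set (coloured symbols) and for the mean folds (black bars); the dashed line is the median of all genes at 5 CPM or more (-0.31). Below the 4 rule genes, medullary maturation (-1.43) and the other MHC class II pathway genes (-1.42) lie lowest, and the interferon response (0.26) lies above the dashed line.

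Outside these lists, the genes with the largest folds were low ones. Zfp64, a zinc finger factor, was at 0.58, 17.6, 6.30 and 0 CPM against 39, 63.7, 49.6 and 77.2, lower in every set, and met the rule under 20 of 21 alternatives. Pax1, a paired-box factor needed for thymus development, was at 0.19, 6.30, 0.42 and 0.27 CPM against 62.7, 31.8, 10.6 and 27.6, and its call did not hold without June5 (-3.23) or without cells with blood markers (-2.72). The genes Lrrc8c (an anion channel subunit, -4.36), Hspb8 (a small heat shock protein, -3.98), Slc29a3 (a nucleoside transporter of lysosomes, -3.93), Tars2 (a mitochondrial threonyl-tRNA synthetase, -3.78), Naglu (a lysosomal glucosaminidase, -3.65) and Gda (guanine deaminase, -3.59) made up the rest of the 12 lowest, together with H2-DMa and 3 of the rule genes. Their mean levels in the comparison cells were 25.1 to 98.7 CPM with 16.3% to 24.8% of cells positive, and folds of genes this sparse depend on the 1 CPM added. Leaving out June5 ended the calls of Lrrc8c, Slc29a3, Tars2, Naglu and Gda. In all, the rule was missed under 12 of the 21 alternatives for Naglu and under 8 each for Slc29a3 and Gda. It was missed under 6 for Tars2, 4 for Lrrc8c and 3 for Hspb8. Those for Hspb8 were the threshold of 400 CPM, at most 8% mitochondrial reads and at most 40% spike-in reads.

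Of the 8 genes higher in the cells below 250, Mga, a partner of the MAX transcription factor, was at 33.9, 158.9, 137.8 and 233 CPM against 6.93, 59.6, 39.1 and 29.5. It was higher in every set with a mean log2 fold of 2.07 ± 0.65, and in the Aire-/- set 1 of the 9 cells held 59.6% of the reads; without that set the rule was not met (1.78), nor under 5 other alternatives. Chd8, a chromatin remodeller, was called at 1.13 ± 0.83 and turned to -0.54 with at most 40% spike-in reads. Its call did not hold under 8 other alternatives. The other 5 were Gm10717, Gm10718, Gm10719, Gm21738 and Gm10800, predicted genes of which the first 3 lie side by side on chromosome 9 (3017408 to 3033289). Counting could divide reads between near-identical copies of such loci, so their values are uncertain. The rule was missed under 3 of the 21 alternatives for Gm10717 and 4 for Gm21738. It was missed under 9 each for Gm10718, Gm10719 and Gm10800.

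Cells above 2500 CPM share the comparison cells, so their values are given only side by side, over the 3 sets with at least 5 such cells. H2-DMa was positive in 50.0%, 46.2% and 63.2% of these cells in June29, WT batch 2 and the Aire-/- set, against 4.55%, 8.33% and 0% below 250. H2-DMb1 was positive in 60%, 76.9% and 81.6% against 20.5%, 16.7% and 22.2%. Ciita was at 4.66, 19.1 and 27.3 CPM there, and 1 cell held 98.6%, 98.3% and 75.5% of its reads. S100a16 was positive in 70%, 84.6% and 84.2% of the cells above 2500, and S100a14 in 10.0%, 30.8% and 60.5%. Of the 210 genes lower in the cells below 250, 9 were called higher in the cells above 2500, where 2.18% of all genes tested were. These 9 include the 4 rule genes, whose levels the class limits fix, and H2-DMa and H2-DMb1, so the count is a description only. Pooled over all sets, June5 included, the tuft marker sum had a median of 14676 CPM in the cells above 2500 and 16772 in those below 250. It was under 5000 CPM in 11 of the 62 and 4 of the 88 cells. In June29, WT batch 2 and the Aire-/- set its median was 4235, 13051 and 17987 CPM above 2500 against 16682, 16772 and 19829 below 250. Markers of Aire-expressing medullary cells were met in 18 of 62 and 1 of 88 cells, again pooled over all sets.

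**Figure D5:**
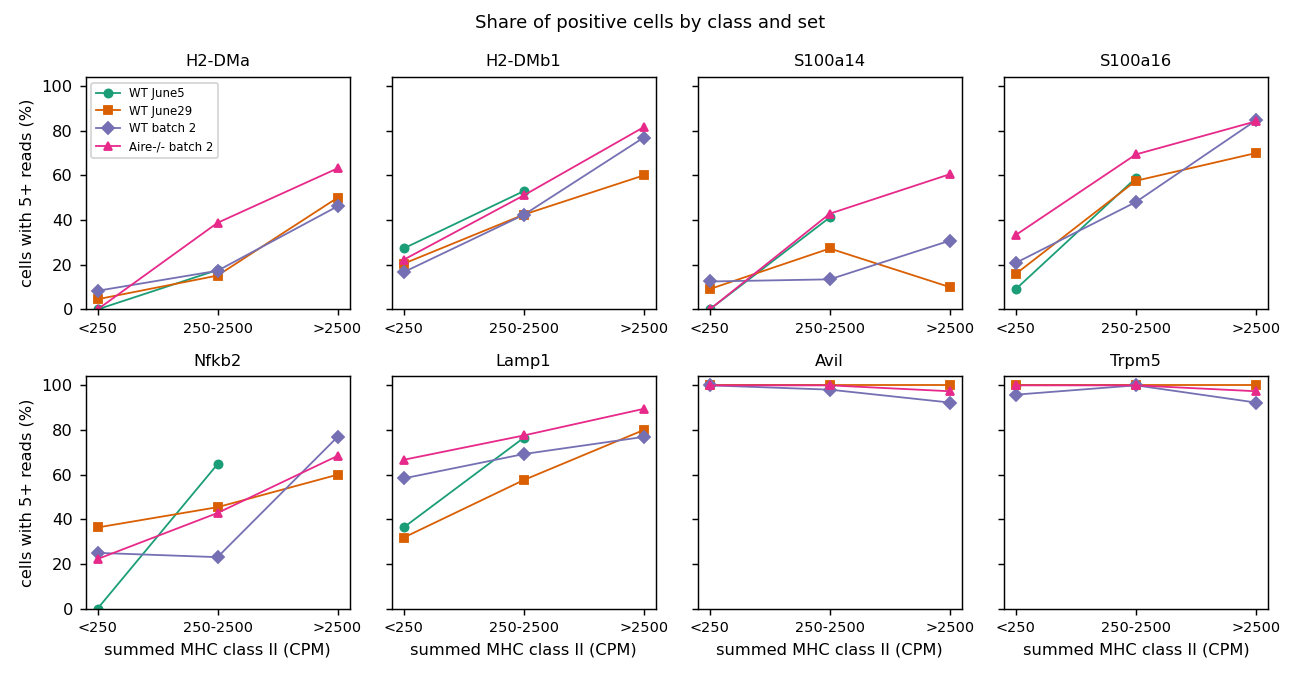
Share of cells with 5 or more reads (%) in the classes below 250, 250 to 2500 and above 2500 CPM, by set, for 8 genes; June5 has 1 cell above 2500 and is drawn without it. H2-DMa and H2-DMb1 step up across the classes in the sets drawn, S100a14 falls again above 2500 in June29 (10.0%), and Avil and Trpm5 stay above 92% in all classes.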

How the data were processed

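Messenger RNA was counted in 314 single-cell wells; 2 wells of 50 cells and a no-cell well served as controls. The deposited tables hold counts of reads per gene, made by the authors on GRCm38 with STAR, featureCounts 1.5.3 and Subread, per the submitters' processing notes; the annotation is not given in the sources used here. A deposited table of scores per gene and well (R 3.4.0 is named) gave only a list of wells. The authors' sample list, which holds other labels, gave only the numbers of its Batch field. Of 48887 entries, 92 were ERCC spike-ins, and 48441 entries carried a name in GENCODE M21 or were spike-ins.

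Cells needed 10000 gene reads, 1000 genes and at most 20% mitochondrial reads, which left 301 cells of 45266 to 2927690 gene reads (median 723828); 12 wells failed on mitochondrial reads and 1 on reads and genes. No doublet caller was run. Within each set and class the counts of all cells were added; a gene's fold is the log2 ratio of CPM plus 1 within a set, and sets weigh equally. A set with fewer than 5 cells in a class was left out. Reads carry no molecular identifiers, so intervals (exact Poisson or Clopper-Pearson, 95%) and the limit from a count of 0 (3 counts) cover counting error only. Genes named are all MHC class II genes, the 12 largest folds in each direction among calls that held in at least 2 of 4 repeats without a set, and per list the calls and up to 4 most abundant genes; Aire, Rfx5 and the neighbours of a threshold were added after their values were seen. The members and the 19 lists were chosen with earlier results of these data known. Alternatives covered thresholds, scaling (TMM, edgeR 4.0.16), depth, filters and sets; the fold script was tested on simulated data. Python 3.11.15, numpy 2.4.6, pandas 2.3.3, scipy 1.17.1 and R 4.3.3 were used.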

Additional observations from a re-analysis of the deposited data

Results flagged for a closer look

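The taste transduction list had a median log2 fold of 0.38 between cells below 250 and comparison cells in the Aire-/- set, while the medians of the WT sets were all below 0 (-0.40, -0.97 and -0.09 for June5, June29 and WT batch 2). The difference between the sets was not tested, and the Aire-/- value rests on 9 cells.

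The 50-cell wells, 1 per genotype, entered no comparison. They held 9106 CPM (WT) and 4351 CPM (Aire-/-) of the 4 genes that made the rule. Both lay above the 2325 CPM of the no-cell well of batch 1, which had 23 such reads. The single cells of batch 2 ranked the other way, with medians of 619 CPM (WT) and 1716 CPM (Aire-/-). A pool and a median of cells are unlike measures, and the difference in order was not tested.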

How the results depend on the processing

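Under the 21 alternatives, of which those on mitochondrial share, spike-in share, mitochondrial reads left out of the CPM and the tuft marker sum were chosen after seeing the data, the median of the other MHC class II pathway genes stayed below 0, from -2.03 to -0.92. The share below 250 CPM moved in WT batch 2 from 26.97% to 17.98% with a threshold of 150 CPM, 40.4% with 400 CPM and 17.8% with at most 40% spike-in reads. In the Aire-/- set it was 18.8% with 400 CPM, in June29 26.8% with at most 8% mitochondrial reads, and in June5 18.8% with at most 40% spike-in reads. Of the genes tested, 4.30% and 0.653% were lower with thresholds of 150 and 400 CPM, 10.3% without each gene's top cell, and 4.02%, 5.002% and 5.45% without June29, WT batch 2 and the Aire-/- set, against 2.53%. The share higher, against 0.0963%, was 0.226% with 150 CPM, 0.170% with comparison cells up to 1000 CPM, 0.0686% without the top cell, 0.160% after thinning, 0.490%, 0.559%, 0.413% and 0.192% without June5, June29, WT batch 2 and the Aire-/- set, 0.180% among cells of the score table, 0.232% without cells with blood markers, 0.639% with at most 8% mitochondrial reads, 2.03% with at most 40% spike-in reads and 0.172% without cells under 5000 CPM of tuft markers. Fewer sets loosen the rule of a common sign; for the other alternatives the cause was not tested. Chd8 turned to -0.54 with at most 40% spike-in reads, where it was the gene that changed sign. Of 95 such values in all, 70 stayed within the limits set. No paired analysis was possible because no test was made. WT batch 2 and the Aire-/- set share parts 1 and 2 of the authors' Batch field. Only their shares below 250 were read within these parts. With 9 and 11 cells below 250 in the Aire-/- set and June5, genes found in few cells cannot be compared firmly.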
